A study of Homo sapiens with 12 samples.

Results

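RNA polymerase II (Pol II) is the enzyme that transcribes protein-coding genes, and POLR2A is its largest and catalytic subunit. The 3 libraries from HCT116 cells depleted of POLR2A were compared with the 3 control libraries, which makes 6 of the 12 libraries of the series. All genes of the count table entered, and genes whose log2 CPM averaged at least 3 across the 12 libraries (called well-expressed here) were kept apart from weaker ones. CPM, the usual per-library unit, divides each count by the TMM-scaled size of its library. HCT116 is a human colorectal carcinoma line. The controls were wild-type HCT116 with DMSO, the solvent. The POLR2A-depleted cells were an HCT116 line whose POLR2A carries an AID2 degron, a tag that sends the protein to the proteasome once the ligand 5-Ph-IAA is added, here at 1 µM. The time is 8 h for both groups by their titles and 6 h by the protocol for RNA extraction. A second degron line served for POLR1A, the largest subunit of RNA polymerase I, with 500 µM indole-3-acetic acid after 24 h of doxycycline at 1 µg/ml, and wild-type cells had 5 µg/mL actinomycin D for 6 h. Each group held 3 libraries of total RNA depleted of ribosomal RNA. The degron line had no library without ligand here, so line, ligand and loss of POLR2A cannot be told apart. The replicates were separate dishes handled on the same day, so every p-value measures only the spread between dishes.

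Pol II makes messenger RNA, most long non-coding RNA and most small nuclear RNA, and its transcripts pass through capping, splicing, cleavage and polyadenylation. When synthesis stops, a transcript is lost at its own rate of decay, so mRNAs of transcription factors and signalling regulators, which tend to be short-lived, are the classic readout, whereas mRNAs of ribosomal proteins and metabolic enzymes tend to be long-lived. RNAs made by RNA polymerase III and by the mitochondrial polymerase do not depend on Pol II. CPM give only the share of each RNA in a library, so a loss of RNA from the whole cell does not show, and fewer cells cannot be told apart from less RNA per cell.

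Library totals ran from 11289094 to 15037410 counts with POLR2A depleted and from 12235068 to 17535685 in the controls. Thinned to 11289094 counts each, the POLR2A-depleted libraries held 37025 to 37917 genes with at least 1 count, against 28983 to 30561 in the controls, and 17309 to 17402 protein-coding genes against 15118 to 15387. All genes of the mitochondrial genome together, mRNAs and other RNAs, took 9.60% ± 0.87 of the counts with POLR2A depleted and 7.30% ± 1.08 in controls (SD, n = 3 each). Of 15 markers of colon epithelium, KRT8, KRT18, EPCAM and CDH1 were present in all libraries, and CEACAM6, TFF3, LGALS4, CDX1 and ASCL2 were at 0 in all 3 controls.

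Well-expressed genes were mostly lower and weak genes mostly higher after POLR2A depletion. Of 10707 well-expressed genes, 5337 fell (49.8%) and 2458 rose (23.0%), by edgeR's quasi-likelihood test at a Benjamini-Hochberg adjusted p under 0.05. A change of 2-fold or more was reached by 1359 of those that fell and by 300 of those that rose. The median log2 fold change of the well-expressed genes was -0.21. Of 12886 weak genes, 1308 fell (10.2%) and 5372 rose (41.7%), with a median of 0.67. Over all 23593 genes tested, 7830 rose (33.2%) and 6645 fell (28.2%), or 61.4% in either direction.

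The size of that split depended on how genes and libraries were treated. Level was also averaged over only the 6 libraries outside the comparison, which gave 10564 well-expressed genes. Of these, 216 rose and 1340 fell 2-fold or more, against 300 and 1359 when all 12 libraries set the level. A weak gene that was high only in the POLR2A-depleted libraries passed the filter because of them, and 4329 weak genes passed in that way or through the controls. Among the 8557 weak genes that passed by the other 6 libraries alone, 2534 rose and 1214 fell, with a median of 0.26. Higher genes made up 31.5% of the well-expressed calls with TMM scaling, 9.22% with libraries scaled to mitochondrial mRNAs, 42.2% with library totals alone and 49.4% with TMM computed on well-expressed genes. The corresponding shares among weak calls were 80.4%, 72.2%, 84.0% and 86.2%. The median of all genes was 0.08 with TMM scaling and moved to -0.20, 0.21 and 0.30 under those 3 scalings, so small changes are read relative to it.

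**Figure D1:**
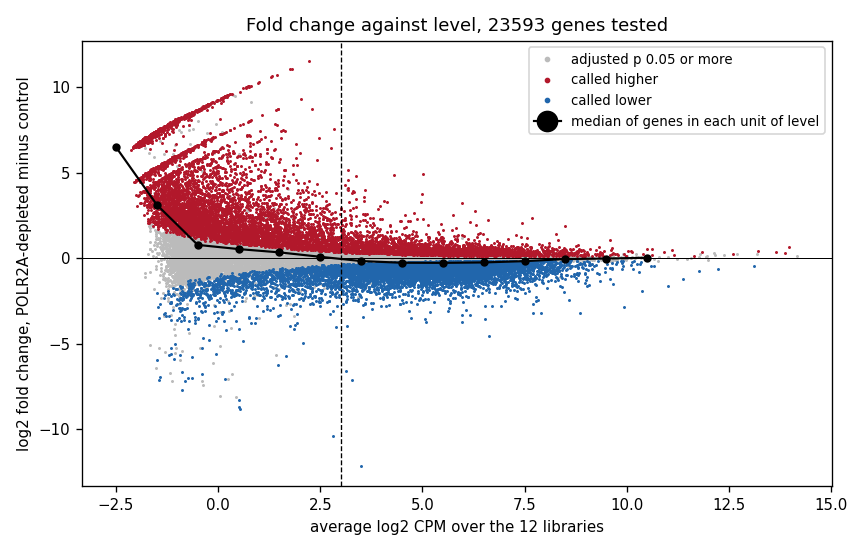
Log2 fold change of each of the 23593 genes tested (POLR2A-depleted minus control) against its average log2 CPM over 12 libraries; the dashed line at 3 separates weak from well-expressed genes. Red and blue points passed the test as higher and lower, and the black line joins medians of genes within 1 unit of level. The cloud of higher genes lies mainly left of the dashed line, where the median is 0.67, and the lower genes dominate right of it, where the median is -0.21.

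The mRNA of the depleted subunit was itself higher. POLR2A stood at 1094, 1073 and 1110.4 CPM in the POLR2A-depleted libraries and at 468, 561 and 514 CPM in the controls. The groups did not overlap, and the rise was 2.12-fold (log2 fold change 1.09, SE 0.06, edgeR adjusted p = 1.46e-12). The degron acts on the protein, so the mRNA does not check the labels. Of the 12 Pol II subunit genes 5 rose and 1 fell. POLR2G, of the stalk that binds emerging RNA, rose from 26.2, 34.8 and 26.6 to 41.2, 39.2 and 43.1 CPM, and POLR2K and POLR2L, small subunits shared with the other polymerases, rose by 0.43 and 0.38 on the log2 scale. POLR2H, another shared subunit, fell by 0.36. The call for POLR2L was lost without each of 5 single libraries, at values from 0.24 to 0.38. The second-largest subunit POLR2B had a log2 fold change of -0.04 (SE 0.05, edgeR adjusted p = 0.594), with overlapping groups. Apart from POLR2A these changes were small, and scaling to mitochondrial mRNAs turned the list's median from 0.18 to -0.10 and its calls to 1 higher and 4 lower, while TMM on well-expressed genes gave a median of 0.39 with 9 higher and 0 lower.

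The 10 lowest genes included transcription factors, a secreted ligand and a kinase subunit. SOX4 (chr6:21592768-21598619, GRCh38), a single-exon gene for a progenitor transcription factor, had 12.7, 10.7 and 9.95 CPM against 262, 273 and 246 in controls. That was a fall of 4.54 on the log2 scale (SE 0.08, edgeR adjusted p = 1.49e-20), with no overlap. GLI2 (chr2:120735623-120992653), the Hedgehog pathway activator, had 0.737, 1.13 and 1.41 CPM against 17.3, 18.9 and 14.0. MKX (chr10:27672875-27746060), a homeobox factor of tendon, had 4.69, 5.69 and 4.15 CPM against 64.7, 68.8 and 62.7. Both fell by more than 3.7 on the log2 scale, by 3.95 (SE 0.21) and 3.74 (SE 0.10). BMP4, a secreted ligand of the TGF-beta family, had 16.2, 16.5 and 17.1 CPM against 150.1, 172 and 171 (it fell by 3.31, SE 0.08). SEMA3A, which guides axons, fell by 3.74 (SE 0.09), the ubiquitin ligase MID1 by 3.55 (SE 0.06), the hyaluronan-degrading protein CEMIP by 3.53 (SE 0.13), the transcription factor MEF2C by 3.46 (SE 0.12) and the junction scaffold MAGI1 by 3.29 (SE 0.07).

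PRKAA2 (chr1:56645322-56715335), which encodes an alpha subunit of the kinase AMPK that senses low energy, was nearly absent with POLR2A depleted. It had 1, 2 and 0 counts there and 133, 165 and 188 counts in the controls. It stood between 10.2 and 17.8 CPM in every POLR1A-depleted and actinomycin D library, so it was near 0 in the POLR2A-depleted libraries and in none of the other 9. A pair of nutrient transporters lie just outside the 10 lowest genes and were picked after their values were seen. They show large falls in abundant mRNAs, though smaller than that of PRKAA2 (log2 fold change -7.12). The glucose transporter SLC2A1 had 47.0, 40.0 and 41.6 CPM against 411, 391 and 358, and the amino acid transporter SLC38A2 had 86.9, 84.9 and 88.7 CPM against 767, 814 and 816. They fell by 3.17 (SE 0.07) and 3.20 (SE 0.05), with no overlap between groups.

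The genes at the high end of the well-expressed set were weak in the controls. APOLD1 (chr12:12725917-12829975), an early response gene of endothelium, had 30.7, 32.9 and 28.8 CPM against 1.25, 0.659 and 0.701. It rose 36.3-fold (log2 fold change 5.18, SE 0.20, edgeR adjusted p = 6.26e-15). The aminopeptidase LVRN (chr5:115962454-116027619) had 32.4, 30.3 and 29.4 CPM against 0.625, 1.38 and 1.69, and rose 23.9-fold. CNTN2, a neural adhesion molecule, had 29.1, 37.2 and 30.8 CPM against 1.56, 1.80 and 1.58, and rose 19.5-fold. TNXB, an extracellular matrix tenascin, rose by 4.13 (SE 0.19), TEX14, of germ cell bridges, by 4.01 (SE 0.22), CPM, the gene of carboxypeptidase M, by 3.98 (SE 0.14) and the septin SEPTIN4 by 3.94 (SE 0.18). ITGA1, an integrin that binds collagen, rose by 3.87 (SE 0.17), ADAMTSL4 by 3.85 (SE 0.18) and the cilium gene CFAP43 by 3.58 (SE 0.15). All 10 had controls below 4 CPM and POLR2A-depleted libraries above 26 CPM, so their average was set largely by the latter.

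**Figure D2:**
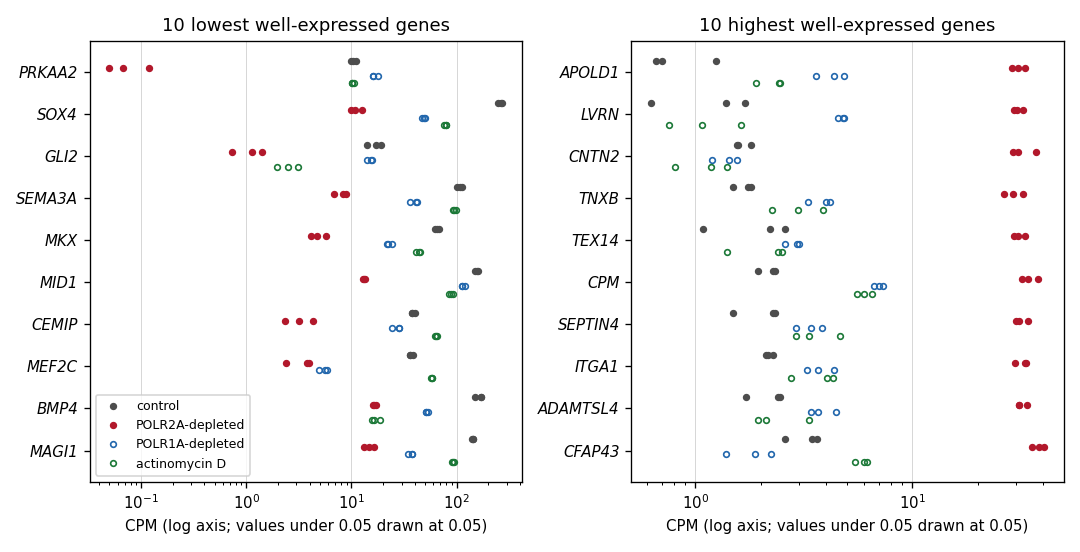
CPM (log axis) in each library for the 10 lowest and the 10 highest well-expressed protein-coding genes by log2 fold change; each point is 1 library, coloured by group, with POLR1A-depleted and actinomycin D libraries as open circles. The POLR2A-depleted and control points do not overlap for any of the 20 genes, as the choice of these genes required. PRKAA2 lies near 0 only with POLR2A depleted, whereas BMP4 lies between 15.8 and 18.7 CPM with actinomycin D too.

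The sequences before the start sites of a few of these genes are shown because the results name these genes among the largest changes: SOX4 and SLC2A1 from the genes that fell, LVRN from the well-expressed genes that rose and KCNQ5 from the weak genes with no control count. Each run is the 250 bases upstream of the start in RefSeq on GRCh38.p14, read along the gene. RefSeq starts can differ from the GENCODE spans given in the text. The SOX4 and KCNQ5 runs lie inside those spans and the LVRN run overlaps its span, while no span is given for SLC2A1. Capitals mark TATAAA (the TATA box), CCAAT (the CCAAT box) and GGGCGG (the GC box) on either strand.
SOX4, chr6:21593501-21593750, plus strand: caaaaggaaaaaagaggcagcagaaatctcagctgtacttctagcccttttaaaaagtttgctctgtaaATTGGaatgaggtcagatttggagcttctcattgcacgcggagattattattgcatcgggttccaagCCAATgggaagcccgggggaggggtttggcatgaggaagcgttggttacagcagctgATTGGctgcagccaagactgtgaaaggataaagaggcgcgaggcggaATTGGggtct
SLC2A1, chr1:42958869-42959118, minus strand: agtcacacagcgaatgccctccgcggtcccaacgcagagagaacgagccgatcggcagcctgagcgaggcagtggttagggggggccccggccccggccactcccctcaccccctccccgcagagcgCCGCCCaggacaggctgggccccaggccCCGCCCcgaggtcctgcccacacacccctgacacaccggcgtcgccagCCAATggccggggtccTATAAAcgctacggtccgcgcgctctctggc
LVRN, chr5:115962225-115962474, plus strand: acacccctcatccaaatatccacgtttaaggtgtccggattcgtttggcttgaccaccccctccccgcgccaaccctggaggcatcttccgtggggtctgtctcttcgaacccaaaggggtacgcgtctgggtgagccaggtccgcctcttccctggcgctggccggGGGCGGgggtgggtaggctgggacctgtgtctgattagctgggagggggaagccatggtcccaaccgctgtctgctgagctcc
KCNQ5, chr6:72621814-72622063, plus strand: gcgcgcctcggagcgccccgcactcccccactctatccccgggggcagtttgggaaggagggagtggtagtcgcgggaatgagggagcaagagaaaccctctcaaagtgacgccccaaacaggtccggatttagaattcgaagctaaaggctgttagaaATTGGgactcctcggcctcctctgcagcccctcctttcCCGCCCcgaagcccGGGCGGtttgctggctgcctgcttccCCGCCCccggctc
The SOX4 run holds 4 CCAAT matches and no other of these motifs, and 48.8% of its bases are G or C. The SLC2A1 run has a TATAAA match that begins 31 bases before the start, with 1 CCAAT and 2 GGGCGG matches and a G and C share of 72.4%. LVRN has 1 GGGCGG match, and KCNQ5 has 1 CCAAT and 3 GGGCGG matches. With 64.0% G and C, the KCNQ5 run is richer than the median of 52% (over 300-base windows) for genes at 0 in controls and detected with POLR2A depleted.

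Promoters differed in composition between the groups of genes. Over 300-base windows (250 before to 50 after the start, 1 start per gene, both strands), TATAAA was found in 12.1% of all 27305 promoters in the RefSeq table, CCAAT in 35.6% and GGGCGG in 43.8%. Well-expressed protein-coding genes that fell 2-fold or more (1074 with a promoter) held TATAAA in 8.38% and GGGCGG in 67.1%, against 5.35% and 74.2% of the 2073 well-expressed genes with no call. Well-expressed genes that rose 2-fold or more (186 with a promoter) held them in 9.14% and 67.2%. Counted only shortly before the start and on the strand of the gene, TATAAA gave another order. It was found there in 3.91% of those that fell, 1.61% of those that rose and 1.64% of those with no call. These are descriptions of letters in a window, without a test.

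Genes of the transcription machinery were lower about as often as other well-expressed genes, of which 49.8% fell and 23.0% rose. The general transcription factors place Pol II at promoters, and 16 of 31 fell and 4 rose (median -0.24). GTF2E1, a subunit of TFIIE, had 16.3, 12.5 and 17.2 CPM against 36.0, 36.3 and 34.2, and the TFIID subunits TAF4, TAF5 and TAF8 fell by 1.05, 0.90 and 0.82. Mediator connects activators to Pol II, and 18 of its 32 subunit genes fell and 7 rose (median -0.28). MED13L, of its kinase module, had 148, 139 and 148 CPM against 446, 439.8 and 462, MED8 fell by 1.71 (SE 0.11) and MED1 by 1.12 (SE 0.05). Of 37 pausing and elongation factors 17 fell and 4 rose (median -0.13), among them CDK12, a kinase of the Pol II tail, which fell by 1.33 (SE 0.06), and NELFA, of the pausing factor NELF, which fell by 1.32 (SE 0.08). With TMM computed on well-expressed genes the elongation median became 0.08 and its calls 14 higher and 11 lower.

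Factors that end and clip transcripts were mostly lower. Of 25 cleavage, polyadenylation and termination factors 16 fell and 6 rose (median -0.36), and of 15 Integrator subunits, which cleave nascent RNA, 10 fell and 1 rose (median -0.51). SCAF8, which restrains early polyadenylation, fell by 1.69 (SE 0.08), INTS7 by 1.47 (SE 0.08) and CPSF7 by 1.17 (SE 0.05). CLP1, an RNA kinase of the cleavage machinery, went the other way, from 15.5 ± 2.23 to 32.2 ± 0.533 CPM (SD, n = 3 each; log2 fold change 1.05, SE 0.12). Of 19 SR proteins and splicing kinases 14 fell and 2 rose, with a median of -0.77. SRSF2, an activator of exon inclusion, had 203, 201 and 190.1 CPM against 447, 427 and 412, and the kinase CLK4 fell by 1.37 (SE 0.14) while its relative CLK1, named after its value was seen, rose by 0.77. Core proteins of the spliceosome had 13 of 28 lower and 5 higher, near the background, and their median of -0.19 turned to 0.03 with TMM computed on well-expressed genes.

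RNA decay genes fell as well. Of 21 genes of the nuclear exosome and its adaptors 17 fell and 1 rose (median -0.47), with the adaptors ZCCHC7 and ZCCHC8 lower by log2 fold changes of -1.11 and -1.06. Of 31 mRNA decay factors 19 fell and 5 rose (median -0.38). CNOT6L, a deadenylase, fell by 1.55 (SE 0.09), whereas TOB1, an antiproliferative partner of the same CCR4-NOT complex, rose from 56.3, 51.6 and 55.4 to 153, 142 and 148 CPM. Of 14 proteins that bind AU-rich and related elements 12 fell and 0 rose (median -0.73). Among those that fell were ZFP36L2, by 1.97 (SE 0.12), ZFP36L1, by 1.34 (SE 0.06), and the Pumilio protein PUM2, by 1.28 (SE 0.05).

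Regulators of signalling and development were lower more often than higher in each list. Over all genes tested, 49.8% of the well-expressed and 10.2% of the weak fell. These lists mix both levels: the homeobox list held 17 well-expressed and 17 weak genes, of which 47.1% fell. The list of feedback inhibitors held 15 and 13. Of 28 feedback inhibitors of signalling 22 fell and 1 rose (median -0.76). AXIN2, a brake on Wnt signalling, had 7.10, 7.29 and 5.97 CPM against 42.7, 44.8 and 44.2, SMAD7, a brake on TGF-beta signalling, fell by 2.14 (SE 0.27) and RGS16, a brake on G proteins, by 2.96 (SE 0.27). SPRED3 was the member that rose, by 2.28 (SE 0.22). Of 35 tested SOX, KLF, FOX and ID factors 24 fell and 2 rose, with a median of -1.06, and beside SOX4 the largest falls were those of KLF12 (2.67, SE 0.11), ID3 and FOXC1 (2.13 each). Of 37 tested genes of the Wnt, Hedgehog and Notch pathways 24 fell and 10 rose (median -0.58). The 34 tested homeobox and HOX genes had 16 lower and 8 higher (median -0.36), with HOXA13 lower by a log2 fold change of -1.95. The counts of lower genes in these lists moved by less than 1.5 times under every other setting tried.

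Immediate early genes moved both ways. Of 29 tested 13 fell (44.8%) and 9 rose (31%), with a median of -0.21. Of the 29, 25 were well-expressed, and the split was near that of all well-expressed genes. Of those, 49.8% fell and 23.0% rose, with the same median of -0.21. MYC, the growth transcription factor, had 90.4, 75.2 and 79.2 CPM against 662, 783 and 759 in controls. ATF3, a stress-induced factor, had 48.3, 44.3 and 55.5 CPM against 10.3, 10.7 and 10.7, and the orphan receptor NR4A3 rose by 2.08 (SE 0.24). The 19 tested DUSP genes, phosphatases that mostly act on MAP kinases, had 10 lower (52.6%) and 3 higher (15.8%). Of the 19, 13 were well-expressed and 6 weak. The largest falls were those of DUSP2, by 1.70 (SE 0.17), and DUSP6, by 1.46 (SE 0.07).

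Chromatin and ubiquitin genes followed the lower side. Of 31 histone methyltransferases and demethylases 23 fell and 1 rose (median -0.60), with DOT1L, EHMT1 and EZH1 lower by log2 fold changes of -1.24, -1.21 and -1.18. Of 30 genes of cohesin, condensin, CTCF and the lamina 19 fell and 5 rose (median -0.27). CTCF, the insulator-binding protein, had 27.7, 21.4 and 25.7 CPM against 94.4, 107 and 99.1, and NCAPH, of condensin, fell by 1.41 (SE 0.07). Of 32 ubiquitin ligase adaptors and F-box genes 22 fell and 2 rose (median -0.56), and MDM4, an inhibitor of p53, fell by 1.70 (SE 0.06).

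Genes of the p53 response rose. Of 30 p53 targets 23 rose and 2 fell, with a median of 0.75 (0.46 with mitochondrial scaling and 0.96 with TMM on well-expressed genes). BTG2, an antiproliferative gene, had 130.2, 129 and 127 CPM against 19.8, 16.7 and 20.3 (log2 fold change 2.77, SE 0.08, edgeR adjusted p = 5.06e-17). FAS, a death receptor, had 80.2, 90.4 and 88.2 CPM against 14.3, 16.6 and 13.8. SESN2, a stress-induced sestrin, had 46.6 ± 0.480 CPM against 9.58 ± 1.22 (SD, n = 3 each). None of these 3 genes had overlapping groups. Members of the list did not all rise: MDM2, the ubiquitin ligase of p53, had a log2 fold change of 0.06 and did not pass, and AEN, a nuclease, fell by 1.07. MDM2 was called higher in 3 of 14 alternatives. These were library totals alone (0.18), TMM on well-expressed genes (0.27) and the filter by the other 6 libraries (0.15). Both MDM2 and AEN were named after their values were seen. SPATA18, with a fold change of 4.34 on the log2 scale, had a total of 3 counts in controls and 64 with POLR2A depleted. In the BCL2 family 5 of 17 tested genes rose and 6 fell. PMAIP1, the death-promoting BH3 protein NOXA, rose 3.86-fold, from 43.3, 47.2 and 47.4 to 180.2, 169 and 184 CPM, and BMF rose by 2.54 (SE 0.48), while BOK fell by 1.20 (SE 0.09).

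Abundant housekeeping mRNAs changed little, and the direction of their medians turned on the scaling. The 76 ribosomal protein genes had a median of 0.01, with 12 higher and 8 lower. With mitochondrial scaling it was -0.28, with 0 higher and 37 lower, and with TMM on well-expressed genes 0.22, with 42 higher and 2 lower. No ribosomal protein gene changed 2-fold. RPS19 rose by 0.45 (SE 0.06) and RPL34 fell by 0.40 (SE 0.07). Of 53 nuclear genes of the respiratory chain 30 rose and 2 fell (median 0.24), and 3 and 4 did so with mitochondrial scaling. ATP5F1B, of the ATP synthase, rose by 0.59 (SE 0.05) and COX7A2 by 0.62 (SE 0.09). Of 31 proteasome genes 13 rose and 5 fell (median 0.11, and -0.19 with mitochondrial scaling), and PSMD2 rose from 264, 306 and 282 to 437, 415 and 412 CPM. Mitochondrial mRNAs, which Pol II does not make, had 2 of 13 higher and 0 lower (median 0.26), and MT-CO1 rose by 0.35 (SE 0.07).

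Within glycolysis the largest change was that of HK2. HK2, the hexokinase that traps glucose, had 37.9, 36.7 and 38.6 CPM against 159, 178 and 175, a fall of 2.18 (SE 0.06). PKM, the last enzyme, had 2163, 2103 and 2062 CPM against 1438, 1640.2 and 1509, and TPI1 and PGAM1 rose by 0.44 and 0.43. LDHA, which makes lactate, had a log2 fold change of 0.03 (SE 0.05) and overlapping groups. It was called higher in 2 of 14 alternatives, library totals alone (0.16) and TMM on well-expressed genes (0.25). In all 9 of 17 glycolytic genes rose and 3 fell (median 0.16, and -0.13 with mitochondrial scaling). Translation factors had 19 of 34 lower and 6 higher (median -0.17, and 0.04 with TMM on well-expressed genes), led by EIF3A and EIF3B, which fell by 1.28 and 1.24. The shares lower and higher, 55.9% and 17.6%, were near those over all well-expressed genes, 49.8% and 23.0%.

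Sterol and mitotic genes were mostly lower, and heat shock genes moved both ways. As background, 49.8% of all well-expressed genes fell and 23.0% rose, with a median of -0.21. Of 25 sterol genes 17 fell and 4 rose (median -0.44). SQLE, an epoxidase of cholesterol synthesis, had 19.2, 16.7 and 16.8 CPM against 93.4, 99.2 and 105, INSIG1 fell by 2.28 (SE 0.11) and HMGCS1 by 1.40 (SE 0.07). Of 30 mitotic genes 22 fell and 2 rose (median -0.41), with PLK1 and CCNB1 lower by log2 fold changes of -0.92 and -0.82. Of 36 replication genes 20 fell and 5 rose (median -0.20, and 0.01 with TMM on well-expressed genes). Their shares lower and higher, 55.6% and 13.9%, and their median were not far from that background. CDT1, which licenses origins, fell by 1.19 (SE 0.06). The ATF4 and unfolded protein response list had 25 genes, of which 17 fell and 6 rose (median -0.57). ATF4 itself had 59.4, 59.8 and 52.7 CPM against 221, 233 and 251. Heat shock genes had 7 of 20 lower and 6 higher, and HSPA8, the constitutive HSP70, fell by 1.61 (SE 0.07), from 3077, 4005 and 3659 to 1181, 1166 and 1174 CPM.

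Epithelial genes fell and inflammatory genes rose more often than not. Of 27 tested keratins and junction genes 19 fell and 4 rose (median -0.34). CLDN3, of tight junctions, fell by 2.71 (SE 0.33) and KRT7 by 2.59 (SE 0.31). KRT18, a keratin of simple epithelia, had 435, 368 and 433 CPM against 939, 1146 and 1029. Of 27 tested interferon and inflammatory genes 15 rose and 6 fell, and 6 of the 27 passed the filter only with the compared libraries. The list held 12 well-expressed and 15 weak genes. Over all genes tested 23.0% of the well-expressed and 41.7% of the weak rose, and 65.6% of the weak that passed only with the compared libraries. IFI27 rose from 0.312, 0.480 and 0.467 to 5.76, 6.63 and 4.48 CPM, and IL1A and IL1B rose by 3.25 and 3.24 from under 0.3 CPM. In the small list of aryl hydrocarbon receptor genes 3 of 9 rose and 4 fell.

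**Figure D3:**
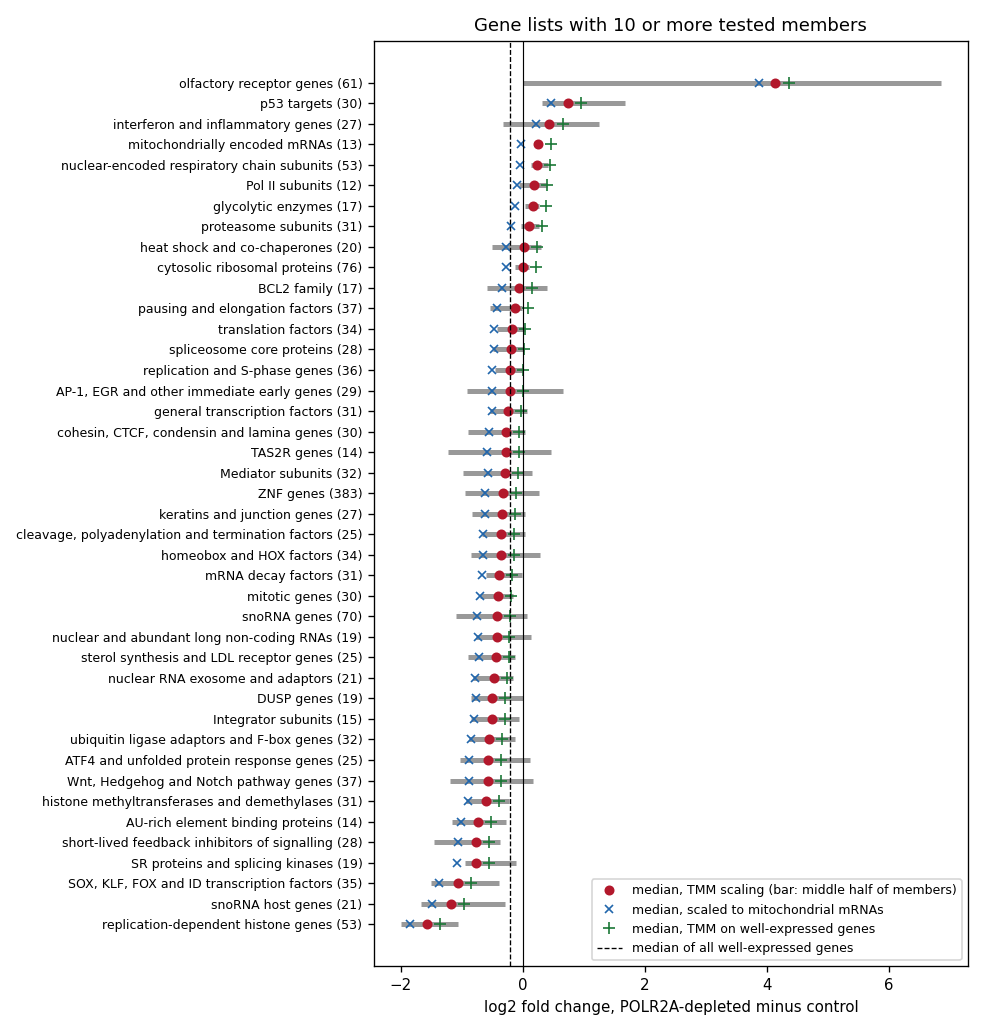
Median log2 fold change (POLR2A-depleted minus control) of each gene list with at least 10 tested members, numbers tested in parentheses; red points are TMM scaling with bars from the 25th to the 75th percentile of members, blue crosses mitochondrial scaling and green pluses TMM on well-expressed genes. The dashed line is the median of well-expressed genes, -0.21. Replication-dependent histones lie lowest at -1.57 and p53 targets lie at 0.75, while ribosomal proteins, at 0.01, change side with the scaling.

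Replication-dependent histone genes, whose mRNAs end in a stem-loop without a poly(A) tail, had the lowest median of the lists plotted. Of 53 tested 44 fell and 7 rose, with a median of -1.57, and 41 fell 2-fold or more. Summed over the 70 genes of the list, they took 2434, 2288 and 2268 CPM with POLR2A depleted and 6257, 7737 and 7020 CPM in controls. H3C4 had 15.4, 7.11 and 12.4 CPM against 83.2, 118 and 94.4. The members that rose were weak in controls, such as H2BC6 (13.7, 15.2 and 15.5 CPM against 0.859, 0.240 and 1.87) and H1-3, with 0 control counts. Histone genes are near copies of each other, so the division of reads among them is uncertain.

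Most snoRNA host genes, which carry small nucleolar RNAs in their introns, fell. Of 21 host genes 17 fell and 1 rose (median -1.18). SNHG1 had 56.4, 53.2 and 54.6 CPM against 279, 278 and 294, SNHG3 fell by 2.04 (SE 0.09) and SNHG7 by 1.95 (SE 0.09). Of 70 tested snoRNA genes 17 fell and 4 rose, and 49 did not pass. Of 7 tested spliceosomal snRNA genes 5 fell and 0 rose (median -1.36), and 2 fell when the 6 libraries were fitted alone and 3 without POLR2A-depleted replicate 3 or control replicate 2. RNU4-1 had 29.2, 11.6 and 19.1 CPM against 28.8, 65.0 and 57.9, so its groups overlapped. Among 19 tested long non-coding RNAs chosen for abundance or nuclear retention 12 fell and 4 rose. NEAT1, the scaffold of paraspeckles, had 594, 676 and 616 CPM against 198, 136 and 182, and MIR31HG rose by 3.38 (SE 0.18). Of 9 tested RNAs made by Pol III 2 rose and 1 fell. RN7SL1, the RNA of the signal recognition particle, was at 19763, 12519.9 and 17909.7 CPM against 10763, 11462 and 9859, a rise of 0.65 (SE 0.18) that did not pass with mitochondrial scaling (0.32), without a filter (0.54) or without control replicate 3 (0.57). These RNAs have many copies and small size, so their counts are uncertain.

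The non-coding genes at the ends of the well-expressed range were little-studied transcripts. PHLDA1-AS1 (chr12:76030494-76031378) had 0, 0.415 and 0.249 CPM against 27.2, 20.9 and 19.6, LINC02331 fell by 3.46 (SE 0.17) and CASC19 by 2.60 (SE 0.15). ST3GAL6-AS1 rose by 4.83 (SE 0.18), LINC01588 by 3.35 (SE 0.14) and TAGAP-AS1 by 2.93 (SE 0.22). SNORD3D, a copy of the U3 snoRNA, had a called rise of 3.21 (SE 1.15) that rests on 357, 0 and 0 control counts and was lost without any single library of the control or POLR2A-depleted group except control replicate 1. The strand setting of the counting is not given in the sources used here, so reads of an antisense gene and of its partner cannot be told apart.

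Among well-expressed protein-coding genes, longer genes were lower. In 5 equal groups by genomic span the median log2 fold change was -0.13, -0.14, -0.18, -0.27 and -0.43, and the share that fell went from 43.6% to 63.3%. The group of shortest genes had a median span of 6587 bases and that of the longest 156055. Exon number gave a smaller gradient, from -0.18 for genes with 1 to 6 exons to -0.30 for those with 19 or more. Single-exon genes departed from it: of 131, 84 fell and 15 rose, with a median of -0.60. Span, exonic length and exon number move together across genes and were not separated, and no test was made over genes.

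Weak genes with longer exonic sequence were higher. Among weak protein-coding genes that passed by the other 6 libraries, the median went with exonic length from 0.14 in the shortest of 5 equal groups to 0.61 in the longest, and with exon number from 0.08 to 0.74. By span the medians were 0.16, 0.35, 0.48, 0.37 and 0.36, without a steady order. Of the same genes, 300 overlap a well-expressed gene on the same strand (median 0.36, 31.7% rose). The others were placed by their distance downstream of the nearest well-expressed gene on the same strand. Those within 5 kb of its end had a median of 0.84, and 55.1% of the 305 rose. The median was 0.80 from 5 to 10 kb, 0.61 from 10 to 20 kb, 0.38 from 20 to 50 kb, 0.35 from 50 to 100 kb, 0.22 from 100 to 300 kb and 0.12 beyond 300 kb, where 32.5% of 1034 rose. Against the POLR1A-depleted libraries the medians of the same bins fell from 0.68 to -0.02, and against actinomycin D they went from 0.86 to 0.30 without falling at every step.

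**Figure D4:**
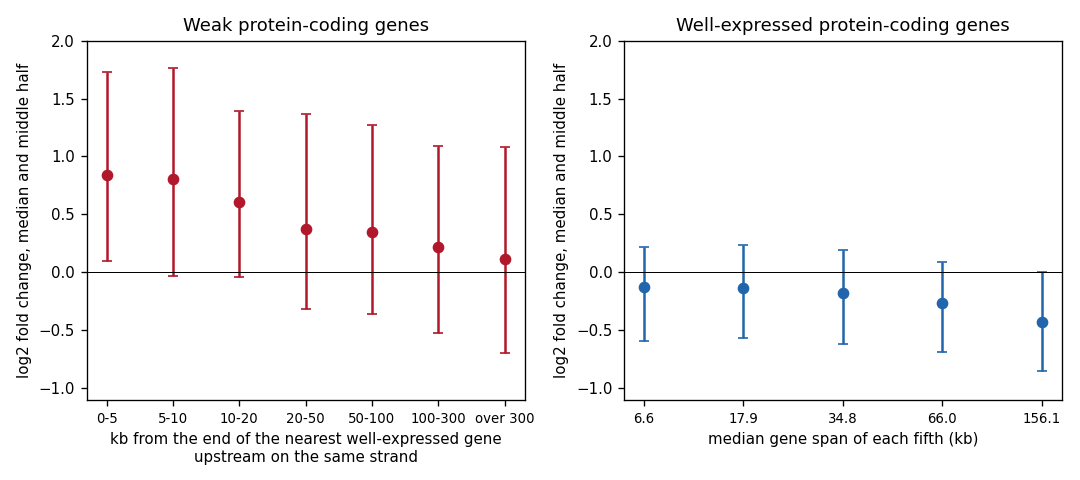
Median log2 fold change (points) with the 25th to 75th percentile of genes (bars). Left, weak protein-coding genes that passed the filter by the other 6 libraries, by distance in kb from the nearest well-expressed gene upstream on the same strand: the median goes from 0.84 within 5 kb to 0.12 beyond 300 kb. Right, well-expressed protein-coding genes in 5 equal groups by span: the median goes from -0.13 to -0.43.

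The weak genes at the high end had no counts in any control library. LGR5 (chr12:71439770-71586310), the receptor that marks intestinal stem cells, had 281, 367 and 255 counts with POLR2A depleted, or 18.8, 21.7 and 21.1 CPM, and 0 in the 3 controls. With a floor of 3 counts over the control group, it was at least 320-fold higher. WFIKKN2 (chr17:50834650-50842348), a protease inhibitor that binds myostatin, had 15.8, 17.4 and 11.7 CPM against 0 and was at least 237-fold higher, and CYP2C18, a cytochrome P450, was at least 167-fold higher. KCNQ5 (chr6:72621792-73198851), a potassium channel, had 117, 175 and 102 counts, at least 139.6-fold above controls. LGR5 was also near 0 with POLR1A depleted, at 0.0922 to 0.311 CPM, and at 0 with actinomycin D.

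The weak genes at the low end were lost to 0 or close to it. The dopamine receptor DRD1 had 0 counts in the POLR2A-depleted libraries and 12, 25 and 31 in controls, at least 21.3-fold lower. FSTL5 and CAPN6 were also at 0 with POLR2A depleted, at least 15.1-fold and 10.0-fold lower. TIMP3, an inhibitor of matrix proteases, had 0, 0 and 2 counts against 45, 92 and 50. These floors and intervals cover counting error only.

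Genes with no control count were detected far more often after POLR2A depletion than in the other groups. Of 19855 protein-coding genes in the table, 3215 had 0 counts in all 3 controls. Of these, 904 (28.1%) had at least 1 count in each of the 3 POLR2A-depleted libraries, against 92 (2.86%) for the POLR1A-depleted and 73 (2.27%) for the actinomycin D libraries, although both of those groups were sequenced more deeply. At least 10 counts in every library were reached by 199, 6 and 3 genes. Together the 3215 genes held 855, 952 and 871 CPM with POLR2A depleted, 53.1 to 65.1 CPM with POLR1A depleted and 44.2 to 62.4 CPM with actinomycin D. Long non-coding genes gave the same order, with 979, 126 and 75 of 6728. The reverse set was small: of 1499 protein-coding genes at 0 in all POLR2A-depleted libraries, 14 were found in all 3 controls.

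Position and length went with detection of these genes as well. Of the 77 that lie within 10 kb downstream of a well-expressed gene on the same strand, 57.1% were detected in all 3 POLR2A-depleted libraries, against 20.5% of the 1754 beyond 300 kb. With POLR1A depleted the shares were 10.4% and 2%, and with actinomycin D 2.6% and 2%. The 146 that overlap a well-expressed gene on the same strand were counted apart, and 17.1% were detected with POLR2A depleted. Among the 59 that overlap one on the opposite strand only, 40.7% were. By exonic length, in 4 equal groups, 14.4% of the shortest and 40.7% of the longest were detected with POLR2A depleted, against 1.61% and 4.1% with POLR1A depleted and 1.12% and 4.1% with actinomycin D. The promoters of the detected genes had a median of 5 CpG pairs per window, the same as those of silent genes with no count in the POLR2A-depleted libraries, and held TATAAA in 17.7% against 25.8%.

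**Figure D5:**
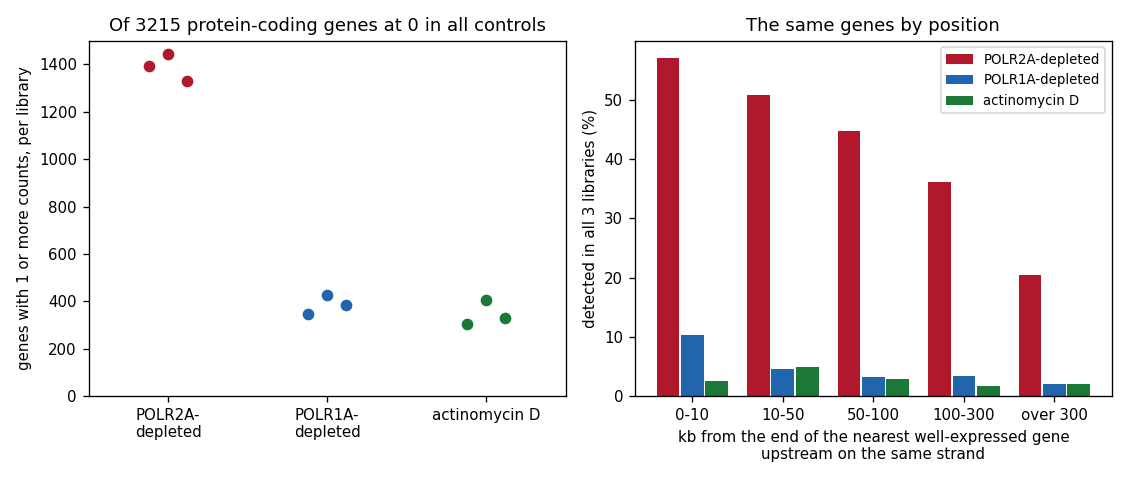
Protein-coding genes with 0 counts in all control libraries. Left, number of the 3215 with at least 1 count in each library (points), from 1329 to 1443 with POLR2A depleted and below 430 in the other groups. Right, share detected in all 3 libraries of a group, by distance in kb downstream of a well-expressed gene on the same strand, which goes from 57.1% to 20.5% with POLR2A depleted.

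Genes that mark other cell types were among those that rose, from levels near 0. Of 6 tested endothelial markers 4 rose and 0 fell, and their list summed to 28.0, 26.6 and 27.8 CPM against 7.34, 8.81 and 5.90 in controls. PECAM1, an adhesion molecule of endothelium, had 7.71, 7.11 and 8.96 CPM against 0.0781, 0.120 and 0.292. Of 8 tested blood cell markers 4 rose and 1 fell, summing to 27.9, 33.3 and 27.7 CPM against 16.7, 16.0 and 17.0. CD14, of monocytes, had 50, 57 and 57 counts against 0, and the integrin ITGAM had 10.6, 11.7 and 7.05 CPM against 0.234, 0.120 and 0.584. Of 8 tested fibroblast markers 5 rose and 2 fell, and their list summed to 65.7, 65.6 and 66.4 CPM against 58.1, 62.9 and 70.1, with overlapping groups. Of 9 neural markers 2 rose and 4 fell, and their list summed to less than in controls, 167, 171 and 169 CPM against 246, 259 and 263. All 4 endothelial and 4 blood markers that rose passed the filter only with the compared libraries, and their part in other results was not tested. Of all weak genes 41.7% rose, and of the 4329 that passed only in that way 65.6% rose, so these counts are near those shares. With the filter set by the other 6 libraries, 0 endothelial and 0 blood markers rose.

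Olfactory receptor genes, which are normally restricted to nasal neurons, moved in opposite directions by place. Among the 382 genes of the family 277 had 0 counts in all controls and 142 had 0 in all POLR2A-depleted libraries. Of 61 tested 37 rose and 10 fell, but 44 of the 61 passed the filter only with the compared libraries, and with the filter set by the other 6 libraries 1 rose. A run of neighbours on chromosome 11, from OR51B4 at 5301014 to OR52D1 at 5489749 (GRCh38), was picked out after its values were seen. Its 9 tested members all fell, and they summed to 108.5, 114 and 105 CPM against 597, 331 and 641 in controls. Summed, the run was below every control in the other treatments too. It took 174 to 237 CPM with POLR1A depleted and 193 to 214 CPM with actinomycin D. Not every member was lower there: OR51B4 had 17.2, 19.8 and 17.5 CPM with actinomycin D against 16.3, 13.2 and 16.2 in controls. OR51M1, OR51Q1, OR51I1, OR51I2 and OR52D1 did not differ by the test from actinomycin D. Their log2 fold changes ran from -0.49 to 0.80 (edgeR adjusted p from 0.121 to 0.698). OR51B4, OR51B5 and OR51B2 were below actinomycin D (log2 fold changes -1.63, -1.49 and -0.71), and OR51B6 was above it (2.25). The 373 others summed to 150.7, 166 and 151 CPM against 23.2, 16.5 and 22.3, and they hold all 37 genes that rose and 1 that fell. OR9Q2, outside the run, had 40, 66 and 63 counts against 0.

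Inside the run the falls were not of equal size. OR51B4 and OR51B5 fell by 1.37 (SE 0.15) and 1.40 (SE 0.09), OR51M1 by 2.37 (SE 0.37), OR51I2 by 2.89 (SE 0.35) and OR52D1 by 3.15 (SE 0.33). OR51I2 had 16.4, 17.5 and 16.2 CPM against 146, 69.2 and 157, and OR52D1 had 9.05, 11.1 and 12.1 CPM against 119, 54.4 and 112. Control replicate 2 was the lowest of the 3 controls for both, and still lay above every POLR2A-depleted library. HBE1, an embryonic globin gene beside the run, rose by 1.13 (SE 0.13), and HBG2, a fetal globin gene, fell by 2.20 (SE 0.17). Several of these gene models overlap each other, so they share reads and are not independent.

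Other large families were mixed. Of 383 tested ZNF genes, most of which encode KRAB-type repressors, 195 fell and 90 rose (median -0.32). Of the 383, 148 were weak and the others well-expressed, and over all genes tested 28.2% fell and 33.2% rose. Among 8 tested keratin-associated protein genes 5 rose and 2 fell, and 6 of the 8 passed the filter only with the compared libraries. Among 14 bitter taste receptor genes 3 rose and 5 fell. With the filter set by the other 6 libraries, 1 gene rose in each of these families. TAS2R31 fell by 2.53 (SE 0.61), and TAS2R42 reached 34 counts in total with POLR2A depleted and 0 in controls.

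MYC, CTCF, BMP4 and histone genes placed the POLR2A-depleted libraries differently against the other treatments. Against the POLR1A-depleted libraries 7822 genes were higher (33.2%) and 6855 lower (29.1%) with POLR2A depleted, 62.2% of those tested. Against actinomycin D 9389 were higher (39.8%) and 7337 lower (31.1%), 70.9% of those tested. These comparisons use the same 3 POLR2A-depleted libraries, and the first sets a degron line against another. MYC was lower than with POLR1A depleted by a log2 fold change of -0.77 and higher than with actinomycin D by 2.77, with 132 to 151 CPM in the former and 10.5 to 12.7 CPM in the latter. BTG2 was slightly below its level with POLR1A depleted (log2 fold change -0.32) and far above that with actinomycin D (4.74). H3C4 was at 64.7 to 101 CPM with POLR1A depleted and at 0.0539 to 0.279 CPM with actinomycin D, so its level with POLR2A depleted lay between the others (log2 fold changes -2.90 and 5.91). CTCF was 1.76 lower on the log2 scale than with POLR1A depleted and did not differ by the test from actinomycin D (log2 fold change -0.06, edgeR adjusted p = 0.558), with 24.3 to 27.5 CPM there. BMP4 was likewise at 15.8 to 18.7 CPM with actinomycin D, and the log2 fold change between the groups was -0.03 (SE 0.08).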

How the data were processed

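Total RNA depleted of ribosomal RNA was sequenced with a stranded kit, per the labels' protocols. The deposited table holds expected counts (estimated counts per Ensembl gene, 63241 genes, 12 libraries), which are not normalized. STAR, RSEM 1.3.3 and HTSeq 2.0.2 are among the tools in the submitters' processing notes, which state no roles, and the builds are GRCh38 and hg38. Which annotation and strand option were counted is not given in the sources. Gene classes and spans came from GENCODE 29 on GRCh38, which holds 58228 of the genes.

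Counts were rounded, filtered by edgeR 4.0.16 (filterByExpr by group), scaled by TMM and fitted over all 12 libraries in R 4.3.3 with 8 residual degrees of freedom. Each difference was tested with edgeR's quasi-likelihood test, with Benjamini-Hochberg adjustment over 23593 genes. All log2 fold changes are POLR2A-depleted minus the other group. In simulated counts for these 23593 genes, 67, 67 and 66 genes were changed 1.5-fold, 2-fold and 4-fold. The test recovered 35.8%, 55.2% and 68.2% of them and called 4 unchanged genes. Far fewer genes changed there than the 61.4% called in the real comparison, so these rates do not carry over to it.

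Genes named are the Pol II subunits, the 10 highest and 10 lowest called well-expressed protein-coding genes without overlap between groups, 5 each of weak protein-coding and of well-expressed non-coding genes by the same rule, and up to 4 called members of each list by size of change. Exceptions chosen after their values were seen are LDHA, SLC2A1, SLC38A2, MDM2, CLK1, AEN, ZNF271P, HBE1, HBG2 and the olfactory receptor run. The comparison, the lists and the rules were chosen with earlier results of these data known. Alternatives were DESeq2 1.42.0, other scalings and filters, only the 6 libraries, a replicate block and leaving out each library. Same-numbered POLR2A-depleted and control libraries had residual correlations of -0.17, -0.11 and 0.06, so the numbers were not taken as pairs. Some results are not reported here.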

Additional observations from a re-analysis of the deposited data

How the results depend on the processing

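With libraries scaled to mitochondrial mRNAs, 5041 genes were higher, of which 641 were well-expressed. With TMM computed on well-expressed genes, 3872 well-expressed genes were higher. With the filter set by the other 6 libraries, 2761 weak genes were higher. The other counts of calls stayed within 1.5 times of those reported under each alternative run. Leaving out each library in turn gave 7193 to 8241 genes higher and 6422 to 6712 lower, 2119 to 2366 well-expressed genes higher and 5212 to 5483 lower, and 4994 to 6090 weak genes higher and 1154 to 1337 lower. The same gave 13993 to 14465 calls against POLR1A-depleted and 16171 to 17047 against actinomycin D libraries. With the replicate number as a block, 7576 genes were higher and 6518 lower, and GFAP and SNORD3D lost their calls (edgeR adjusted p = 0.0519 and 0.0739); the labels give these numbers no shared source. POLR2C turned from 0.23 to -0.068 with mitochondrial scaling (edgeR adjusted p = 0.723), and POLR2B turned from -0.04 to 0.18 with TMM on well-expressed genes (edgeR adjusted p = 0.00145); the causes were not tested beyond the shift of scale. Of 3489 values for 253 named genes under these alternatives, 3391 kept sign and call, 58 lost the call and 23 gained it with the same sign, and 17 values of 9 genes changed sign, 15 of them not called in either fit. Counts per list moved by over 1.5 times in 200 of 1428 cases, 43 of them with mitochondrial scaling and 36 with TMM on well-expressed genes.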

Other observations

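ZNF271P, a transcribed zinc finger pseudogene on chromosome 18 that the naming rule does not cover, had 0 counts in the 3 POLR2A-depleted libraries. It stood at 8.04, 9.53 and 10.2 CPM in the controls and at 4.91 to 11.4 CPM in the POLR1A-depleted and actinomycin D libraries. Zinc finger genes share near-identical stretches, so its counts are uncertain.

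By chromosome, well-expressed protein-coding genes on chromosome 21 had the lowest nuclear median, at -0.51, with 69 of 100 lower and 15 higher, followed by chromosome 18 at -0.33 and chromosome 13 at -0.32. These medians are descriptions over genes, without a test.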
